A study of Homo sapiens with 36 samples.

Results

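The RNA of UM-SCC-1 cells carrying an shRNA against ALKBH5 was compared with that of cells carrying a scramble shRNA. The comparison used 7 of the 15 RNA-seq columns of the deposited expression table: 2 libraries with ALKBH5 shRNA-1, 2 with ALKBH5 shRNA-2 and the 3 libraries of the scramble group that belongs to the ALKBH5 set. Its members are the 18227 of 21797 listed genes whose mean over the 15 columns reached 1 CPM (reads scaled to a common library size). The spread behind each standard error and p-value was estimated in 1 fit over all 15 columns. UM-SCC-1 is an established cancer cell line, which the labels give as squamous cell carcinoma of the head and neck. All groups were infected with a retrovirus and kept under 10 ug/mL blasticidin for 4 days, so the scramble cells share the vector and the selection. Sample titles name shRNA where the design text speaks of siRNA, and the titles are followed. The sequences of the hairpins, and whether each line is 1 clone or a pool, are not given in the sources used here. In this set the labels list 9 RNA-seq samples, of which shRNA-1 replicate 3 and shRNA-2 replicate 2 were not analysed here. The labels do not name replicates as cultures of their own, so every p-value below measures the spread between libraries, which may be technical.

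ALKBH5 is an iron- and oxoglutarate-dependent dioxygenase of the AlkB family that removes the methyl group of N6-methyladenosine (m6A) from RNA in the nucleus. The mark is written by the METTL3 and METTL14 complex and read by proteins of the YTH family, which are known to affect splicing, export and decay of the marked transcripts. ALKBH5 and its relative FTO are the known m6A erasers of human cells.

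Libraries held between 4985416 and 6733017 reads in listed genes, and 0 reads in a library allow a level of up to 0.43 to 0.578 CPM. Such limits cover counting error only. The share of reads in mitochondrially encoded genes was 3.49% to 4.16% with the shRNAs and 4.31% to 6.45% with scramble, and scramble replicate 1 was the highest. Of 10 markers of squamous epithelium, 5 (TP63, KRT5, KRT14, KRT17 and KRT6A) were not analysed here. The other 5 were low in every library, and ITGB4 had the highest mean of them at 1.97 CPM. The epithelial genes EPCAM (0.573 to 2.55 CPM) and CDH1 (1 to 3.02 CPM) were close to the level that 0 reads allow. The desmosome genes DSP (178 to 215 CPM) and DSG2 (199 to 259 CPM), the keratin KRT18 (36.6 to 44.9 CPM) and the stem cell factor SOX2 (5.45 to 10.2 CPM) were measured above it. These 5 markers do not mark the cells as squamous, and the name of the line is taken from the labels.

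ALKBH5 itself (ENSG00000091542, hg38 chr17:18183078-18209954) was at 109, 132 and 123 CPM in the scramble libraries. Its levels were 84.7 and 84.8 CPM (shRNA-1) and 75.1 and 89.6 CPM (shRNA-2). All 4 shRNA libraries lay below all 3 scramble libraries, and the mean with the shRNAs was 68.9% of the scramble mean. The log2 change was -0.53, with a standard error (SE) of 0.08 and an adjusted p of 9.1e-05 in limma, the test used throughout on log2(CPM + 1). In the authors' deposited edgeR table the log2 change was -0.52 for shRNA-1 (FDR 0.00205) and -0.56 for shRNA-2 (FDR 0.00252). The transcript was reduced and not lost. In bulk RNA, fewer cells that carry a transcript and less of it per cell cannot be told apart.

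Of the 18227 genes, 15.1% were called changed at an adjusted p under 0.05. Higher calls numbered 1446 (7.93%) and lower calls 1308 (7.18%), and the median change of all genes was 0.005. Most changes were small: 917 of the higher and 992 of the lower genes moved by under 1.5-fold. A change of at least 2-fold was called upward in 160 genes and downward in 46. In 2249 genes (12.3%) all 4 shRNA libraries lay above all 3 scramble libraries, and in 2175 (11.9%) they lay below. Leaving out any 1 of the 7 libraries lowered the total from 2754 to between 1710 (without scramble replicate 1) and 2358 (without shRNA-2 replicate 3). The balance of directions was close: edgeR on the recovered reads called 1374 higher and 1434 lower.

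**Figure D1:**
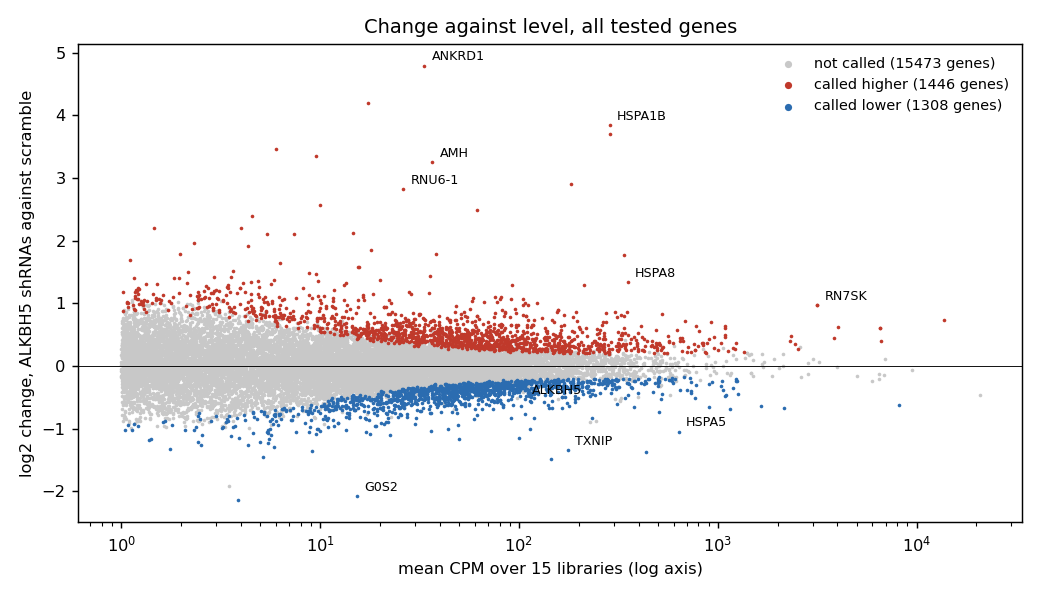
Log2 change over both ALKBH5 shRNAs against scramble (vertical axis) for each of the 18227 tested genes, by mean level over 15 libraries (CPM, log axis). Red points are the 1446 genes called higher and blue points the 1308 called lower by limma; ANKRD1 and the HSP70 gene HSPA1B are among the highest points and G0S2 is among the lowest.

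Among the largest rises were those of ANKRD1, the pseudogene KLKP1 and the inducible HSP70 chaperones. ANKRD1 (chr10:90912096-90921087), which encodes an ankyrin repeat protein of muscle nuclei and sarcomeres, was at 0.514, 1.54 and 0.754 CPM in the scramble libraries. Its levels were 50.6 and 59.2 CPM (shRNA-1) and 52.4 and 44.3 CPM (shRNA-2). Every shRNA library was above every scramble library, a log2 change of 4.79 (SE 0.21). HSPA1B (chr6:31827738-31830254), a stress-inducible HSP70, was at 29, 31.8 and 37.7 CPM with scramble, at 528 and 454 CPM (shRNA-1) and 472 and 476 CPM (shRNA-2). Its neighbour HSPA1A (chr6:31815543-31817946) was at 31.5, 37.5 and 40.5 CPM with scramble, against 453 to 518 CPM with the shRNAs. The groups of both genes were far apart, with log2 changes of 3.84 (SE 0.09) and 3.70 (SE 0.08). HSPA1A and HSPA1B are near-identical copies, and the lncRNA ENSG00000285565 (log2 change 2.91) overlaps HSPA1B on the same strand, so the split of reads among these 3 is uncertain.

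HSPA6 (chr1:161524540-161526894), an HSP70 gene that is nearly silent without stress, was listed at 0, 0.461 and 1.13 CPM with scramble. It reached 16.5 and 13.9 CPM with shRNA-1 and 15.3 and 14.6 CPM with shRNA-2, a log2 change of 3.46 (SE 0.29). HSPA8, the constitutive HSP70 of the cytosol, was at 210, 169 and 166 CPM with scramble, at 459 and 465 CPM (shRNA-1) and 506 and 404 CPM (shRNA-2). The 4 shRNA values again lay above all scramble values (log2 change 1.33, SE 0.08). The limma adjusted p of the 4 HSP70 genes was at most 2.1e-08.

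Chaperones of the cytosol rose as a group. Of the 35 tested members of the heat shock and cytosolic chaperone list, 22 were called higher and 1 lower. Of all genes, 7.93% and 7.18% were, and each list count below is to be read beside these shares. They were larger among abundant genes: 18.9% and 16.6% of protein-coding genes in the highest of 5 level groups. The list's median change was 0.40 against 0.005 for all genes. The HSP110 exchange factor HSPH1 was at 81.7, 82.8 and 71.1 CPM with scramble, against 151 to 175 CPM with the shRNAs (log2 change 1.01, SE 0.08). HSP90AA1, the inducible HSP90, went from 2813, 3062 and 2681 CPM to between 3773 and 4949 CPM (0.62, SE 0.09). Its constitutive counterpart HSP90AB1 was not called (0.20, adjusted p = 0.10 in limma). The J-domain proteins DNAJA1 (0.82) and DNAJB1 (0.60), the small chaperone HSPB1 (0.79) and the HSP70-HSP90 adaptor STIP1 (0.64) were called higher in each fit that left out 1 library. So was the mitochondrial chaperonin HSPD1 (0.32, SE 0.06). The transcript of HSF1, the transcription factor of the heat shock response, was between 44 and 49.8 CPM with scramble, against 56.5 to 60.5 CPM with the shRNAs. These groups did not overlap, but the change of 0.31 (SE 0.11) had an adjusted p of 0.060 in limma and was not called. The 1 lower call, HSPA4L (-0.24, SE 0.08), was lost without scramble replicate 2 (-0.17, limma adjusted p = 0.23) and also with each of several other libraries left out. Of 14 genes of the CCT chaperonin and its partner prefoldin, which fold actin and tubulin, 7 were called higher and 0 lower (median 0.19). CCT7 (0.46, SE 0.07), CCT5 (0.36, SE 0.07) and PFDN5 (0.83, SE 0.12) were among them.

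**Figure D2:**
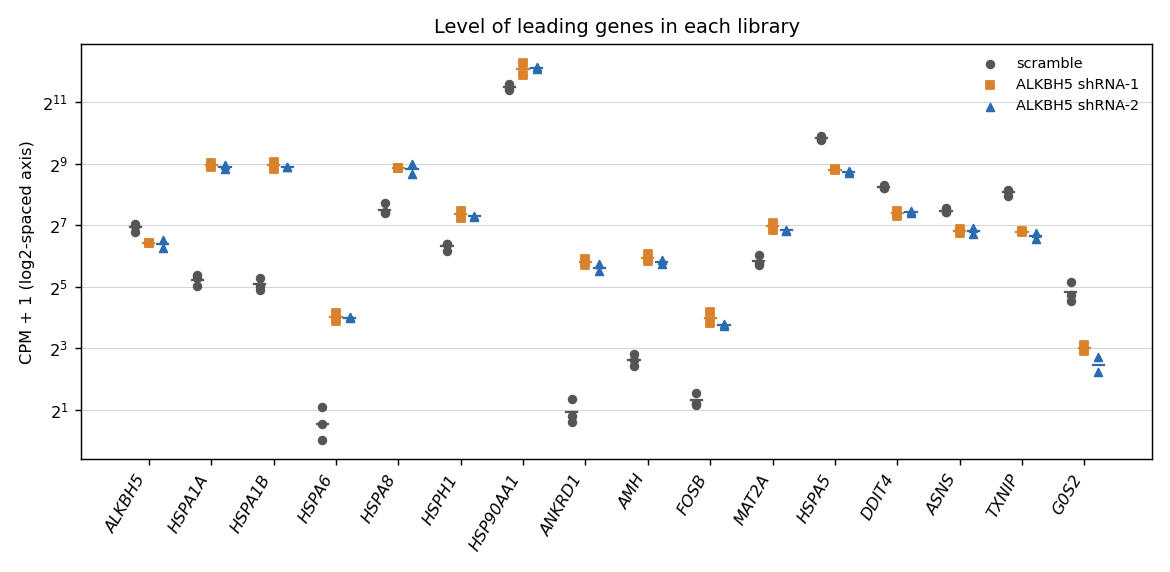
Level of 16 genes in each of the 7 libraries, as CPM + 1 on a log2-spaced axis. Circles are the 3 scramble libraries, squares the 2 shRNA-1 and triangles the 2 shRNA-2 libraries, with a short line at the mean of the log values; the shRNA symbols lie above every circle for HSPA1A to MAT2A and below every circle for ALKBH5 and for HSPA5 to G0S2.

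The promoters of these chaperone genes were read because heat shock factors bind repeats of a short element. The element searched was GAANNTTC, which reads the same on both strands, in RefSeq promoters from 250 bases before to 50 after the start (GRCh38.p14). Of the 18227 genes, 11813 matched a promoter in the table. The element was in 6.77% of all 35116 promoters, in 6.24% of those of genes called higher, in 5.27% of those called lower and in 4.45% of the others. It was in 9 of 20 promoters of list members called higher (CHORDC1, DNAJA1, DNAJB6, HSPA1A, HSPA1B, HSPA6, HSPA8, HSPB1 and HSPB8) and in 0 of 10 of those not called. A match of letters is a description of the window and no evidence of binding. The stretches around the element upstream of the starts of 3 of these genes are shown because their transcripts moved furthest beyond error, with the element in capitals and each read on the strand of its gene.
HSPA1A, chr6:31815422-31815459, plus strand: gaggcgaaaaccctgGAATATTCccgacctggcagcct
HSPA1B, chr6:31827618-31827655, plus strand: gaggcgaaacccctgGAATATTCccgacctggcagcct
HSPA8, chr11:123062164-123062226, minus strand: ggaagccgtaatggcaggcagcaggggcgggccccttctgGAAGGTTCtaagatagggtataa
The match shown ended 98 bases before the start in HSPA1A, 97 in HSPA1B and 42 in HSPA8. HSPA8 had 2 matches upstream of its start, and only the nearest is shown.

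Of the 30 tested genes for folding and quality control in the endoplasmic reticulum, 10 were called lower, 0 higher and 20 neither, with a median of -0.20. HSPA5 (chr9:125234853-125241343), which encodes the luminal HSP70 known as BiP, was at 896, 956 and 861 CPM in the scramble libraries. Its levels were 450 and 440 CPM (shRNA-1) and 418 and 435 CPM (shRNA-2). The 4 shRNA values were all below the lowest scramble value, and their mean was 48.2% of the scramble mean (log2 change -1.05, SE 0.07, limma adjusted p = 1.7e-10). HERPUD1, a scaffold of endoplasmic reticulum degradation, went from 109, 107 and 109 CPM to between 60.8 and 77.3 CPM (-0.65, SE 0.08). The luminal HSP90, HSP90B1, went from 1281, 1312 and 1219 CPM to between 856 and 970 CPM (-0.47, SE 0.07). ERO1A, which drives disulfide formation, was lower by a similar size (-0.58, SE 0.08). The 20 genes that were not called included CALR (0.06) and the transcription factor XBP1. The shRNA values of XBP1 (298 to 318 CPM) lay inside its scramble range of 267 to 323 CPM.

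The endoplasmic reticulum stress response element pairs CCAAT with CCACG, with 9 bases between them, and was searched on both strands. It was in 0.0769% of all promoters, 0.119% of those of tested genes and 6 of the 27 matched promoters of this list. Of these 6, HSPA5, HSP90B1 and CANX were called lower and CALR, CRELD2 and XBP1 were not called. The promoters of those called are shown with both boxes in capitals, so that the arrangement can be set beside the chaperone promoters above, whose transcripts moved in the opposite direction.
HSPA5, chr9:125241376-125241424, minus strand: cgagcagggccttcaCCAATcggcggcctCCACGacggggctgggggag
HSP90B1, chr12:103930281-103930354, plus strand: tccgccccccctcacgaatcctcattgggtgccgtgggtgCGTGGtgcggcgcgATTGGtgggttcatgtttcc
CANX, chr5:179698763-179698811, plus strand: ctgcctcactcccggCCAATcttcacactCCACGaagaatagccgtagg
In HSP90B1 the boxes shown lie on the opposite strand, so the capitals there read as their reverse complements. HSP90B1 had 2 matches upstream of its start, and only the nearest is shown. The third motif searched was TGATGNAAT of the C/EBP-ATF response element. Within this window it was in 0.991% of all promoters, 0.449% of those of tested genes and 0 of 23 matched promoters of ATF4 targets.

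Genes of the ATF4 and amino acid response list were lower in 13 of 30 cases and higher in 4, with a median of -0.24. ATF4 is a transcription factor that is translated when amino acids are short and induces synthesis and import of amino acids. Asparagine synthetase, ASNS, was at 189, 169 and 173 CPM with scramble, at 105 and 115 CPM (shRNA-1) and 119 and 104 CPM (shRNA-2) (-0.67, SE 0.07). The lncRNA ENSG00000284707 overlaps ASNS on the same strand and had a similar change (-0.57). INHBE, a subunit of activins made under this response, went from 26.9, 26.1 and 22.2 CPM to between 8.02 and 13.6 CPM (-1.06, SE 0.18). The mitochondrial folate enzymes ALDH1L2 (-0.63, SE 0.07) and SHMT2 (-0.52, SE 0.07) and the cystine transporter SLC7A11 (-0.45, SE 0.07) were also called lower. ATF4 itself was higher, from 468, 503 and 489 CPM to between 551 and 578 CPM (0.21, SE 0.06, limma adjusted p = 0.026), a call that was lost without scramble replicate 1 (0.18, limma adjusted p = 0.11). The 4 higher calls of the list fell to 2 without scramble replicate 1 and to 2 without shRNA-1 replicate 1. DDIT3, which encodes the stress factor CHOP, was not called (0.23, adjusted p = 0.14 in limma), and it overlaps MARS1 on the other strand.

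Of 20 genes for the enzymes that charge tRNAs in the cytosol, 9 were called lower and 0 higher (median -0.16). EPRS1 fell from between 777 and 827 CPM to between 593 and 651 CPM (-0.39, SE 0.06), and LARS1 by 0.27 (SE 0.06). The count depended on single libraries: it was 4 without shRNA-1 replicate 1, scramble replicate 1 or scramble replicate 2, and 5 without shRNA-2 replicate 3.

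Immediate early genes, which are induced within minutes of a stimulus and encode AP-1 subunits and their regulators, were higher in 10 of 27 cases and lower in 0 (median 0.36). FOSB was at 1.89, 1.23 and 1.32 CPM with scramble, at 13 and 17 CPM (shRNA-1) and 12.2 and 12.7 CPM (shRNA-2). FOS was at 1.54, 0.307 and 1.7 CPM with scramble, against 6.31 to 9.48 CPM with the shRNAs. Both genes were low in all scramble libraries and above them in all shRNA libraries, with log2 changes of 2.57 (SE 0.21) and 2.098 (SE 0.30). DUSP1, a phosphatase of stress kinases, rose from between 20.7 and 21.5 CPM to between 46.2 and 52.8 CPM (1.16, SE 0.11). JUN, the most abundant AP-1 subunit here, rose from 798, 973 and 847 CPM to between 1070 and 1179 CPM (0.36, SE 0.08), and JUNB by 1.05 (SE 0.17). ATF3 (0.03) and MYC (0.19) were not called. Of 23 tested genes of the YAP and TAZ pathway, 1 was called higher and 2 lower, where 7.93% and 7.18% of all genes were. The number of calls is near the background, but the 1 higher call was ANKRD1, one of the largest rises named above. CCN2 was between 3.77 and 4.15 CPM with scramble, against 2.01 to 4.73 CPM with the shRNAs, and CCN1 had a change of 0.38 (limma adjusted p = 0.068).

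Several transcripts best known from muscle and cilia rose. DNAH17, an axonemal dynein heavy chain, was at 13.4, 14.5 and 20.6 CPM with scramble, at 102 and 88.2 CPM (shRNA-1) and 81.6 and 104 CPM (shRNA-2) (2.49, SE 0.13). DNAH1 (1.85, SE 0.18), the embryonic myosin MYH3 (1.58, SE 0.20), the sarcomere ruler NEB (1.37, SE 0.17) and the ryanodine receptor RYR2 (1.03, SE 0.11) were also higher. Their list had 8 higher and 2 lower calls among 31 genes (median 0.14), and the dystrophin relative UTRN was lower (-0.53, SE 0.06). Without shRNA-2 replicate 1 or scramble replicate 2 the higher calls numbered 5, and the median was 0.034 without scramble replicate 1 and 0.075 without shRNA-2 replicate 3. Defining markers of striated muscle were at the floor: DES and ACTA1 were each at most 2.92 CPM in every library. Actin ACTA1 was called higher, and the summed level of both was 0.343 to 1.23 CPM with scramble and 1.35 to 3.83 CPM with the shRNAs. Of 6 markers of melanocytes or neural cells 1 was listed, the melanosome gene PMEL. It was called higher, from 0.685 to 3.77 CPM with scramble to 6.16 to 8.41 CPM with the shRNAs. PMEL overlaps CDK2 on the other strand, and the strand setting of counting is not known, so its reads are uncertain. The part of cells of either kind in the result was not tested. MYH9 and PLEC, cytoskeletal genes of most cells, were not called (0.15 and 0.16).

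Other large rises were in a pseudogene, a hormone gene and noncoding RNAs. KLKP1, a kallikrein pseudogene, was at 0.514, 0.922 and 0.943 CPM with scramble, against 27.9 to 37.4 CPM with the shRNAs (4.20, SE 0.19). AMH, the hormone that suppresses Müllerian ducts, was at 5.14, 4.3 and 6.03 CPM with scramble, against 51.8 to 65.8 CPM with the shRNAs (3.26, SE 0.15). The lncRNA ENSG00000272512 (chr1:995966-998051) went from at most 1.7 CPM to between 13.4 and 16.8 CPM (3.35, SE 0.31). In all 3 the groups were far apart. FBXL19-AS1 (2.12, SE 0.25) overlaps FBXL19 on the other strand, and FBXL19 had a change of 0.04. RNU6-1, a copy of the U6 spliceosomal RNA, rose by 2.82 (SE 0.21) from 14.1, 4.76 and 6.41 CPM to between 55.3 and 66.7 CPM. U6 exists in many copies, so its gene is uncertain.

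Among the largest falls were those of a lipase inhibitor, a thioredoxin-binding protein and several noncoding RNAs. G0S2 (chr1:209675412-209676390), an inhibitor of the lipase ATGL, was at 25.7, 22.1 and 34.9 CPM with scramble, at 6.45 and 7.66 CPM (shRNA-1) and 3.63 and 5.59 CPM (shRNA-2). TXNIP, which binds thioredoxin and restrains glucose uptake, was at 278, 248 and 274 CPM with scramble, at 108 and 110 CPM (shRNA-1) and 93.6 and 107 CPM (shRNA-2). Neither gene's groups overlapped, and the log2 changes were -2.08 (SE 0.23) and -1.34 (SE 0.09). ARRDC4, a relative of TXNIP that is induced by the same sugar sensor, fell alongside it (-0.83, SE 0.08). DDIT4, known as REDD1 and an inhibitor of mTORC1, fell from 294, 294 and 314 CPM to between 157 and 174 CPM. PPDPF (-1.16, SE 0.12), RIMS3 (-1.09, SE 0.22) and ARSA, the lysosomal arylsulfatase A (-1.22, SE 0.31), were among the next. The sodium channel SCN9A fell by 1.30 (SE 0.27). ERBB4, a receptor of neuregulins, had a change of -1.10 that was not called without scramble replicate 2 (-0.84, limma adjusted p = 0.072), and BASP1 (-1.46) behaved alike without it (-1.21, limma adjusted p = 0.055). A U2 spliceosomal RNA copy (ENSG00000278048), MIR639, which lies within TECR and overlaps DNAJB1 on the other strand, and the pseudogene ENSG00000250746 also fell, by 1.49, 1.16 and 1.37, and their reads cannot be assigned with confidence.

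Collagen and its crosslinking enzymes were lower in 10 of 25 cases and higher in 2 (median -0.17). The lysyl oxidase LOX went from 33.4, 30.6 and 33.4 CPM to between 12 and 17.2 CPM (-1.10, SE 0.14). COL12A1 went from between 26.9 and 30 CPM to between 13.4 and 15.6 CPM (-0.91, SE 0.14), and fibronectin, FN1, from between 78 and 86.2 CPM to between 45.7 and 60.7 CPM (-0.68, SE 0.10). COL7A1, the anchoring fibril collagen, was higher, from 3.26, 4 and 7.35 CPM to between 11.7 and 18.9 CPM (1.47, SE 0.26). The summed level of the 6 listed fibroblast markers was 34.1 to 40.3 CPM with scramble and 37.7 to 39.7 CPM with the shRNAs, and 0 of them were called. The higher calls numbered 1 without scramble replicate 1, and the list median was -0.082 without shRNA-1 replicate 2.

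**Figure D3:**
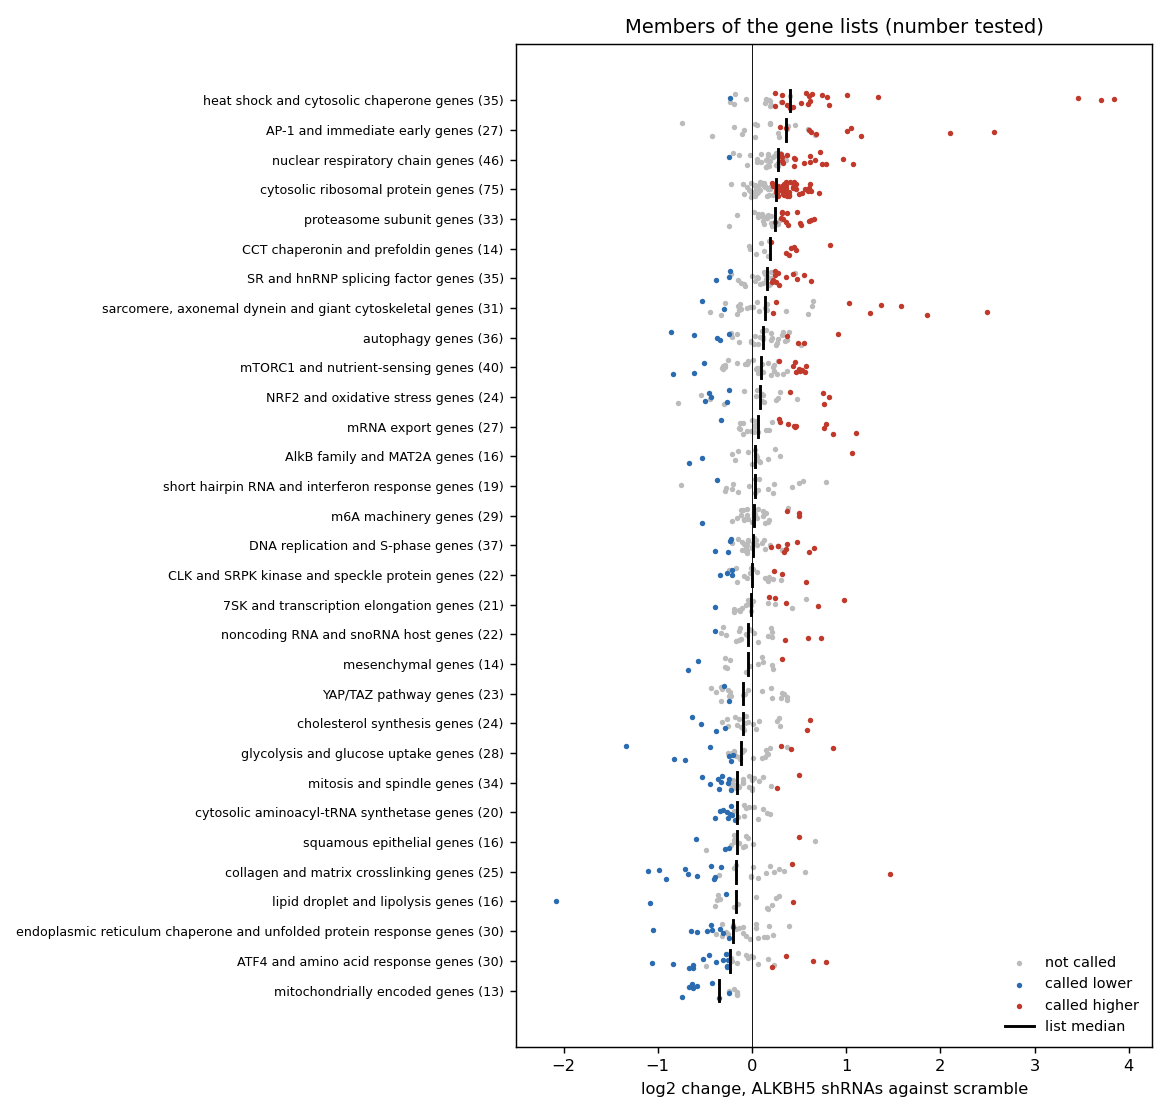
Log2 change over both ALKBH5 shRNAs against scramble for every tested member of 31 gene lists, 1 point a gene, with the number tested in brackets. The list of p53 target and growth arrest genes is not drawn. Red points were called higher, blue points lower and grey points neither, and the black bar is the list median; medians run from -0.35 in mitochondrially encoded genes to 0.40 in heat shock genes.

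Of 29 tested genes for writers, erasers and readers of m6A, 3 were called higher and 1, ALKBH5, lower, near the 7.93% and 7.18% of all genes. The median was 0.025, and 0.052 and 0.011 without shRNA-1 replicate 1 and replicate 2. The writer METTL3 was between 47 and 53.3 CPM with scramble, against 47.6 to 56.2 CPM with the shRNAs, an overlap. FTO had a change of -0.21 that was not called (limma adjusted p = 0.14), although its 4 shRNA values (61.1 to 70.5 CPM) lay below the scramble values (71.4 to 78.6 CPM). The nuclear reader YTHDC1 rose from between 203 and 208 CPM to between 248 and 275 CPM (0.37, SE 0.07), and RBMX, a splicing factor that binds m6A-dependent sites, rose by 0.50 (SE 0.06). RBM33, known as a partner of ALKBH5, was between 227 and 232 CPM with scramble, against 220 to 253 CPM with the shRNAs (0.03). MAT2A, which makes the methyl donor S-adenosylmethionine, rose from 64.1, 50.7 and 53.9 CPM to 134 and 113 CPM with shRNA-1 and 111 and 115 CPM with shRNA-2 (1.06, SE 0.09). The groups did not overlap. AHCYL1, a relative of the hydrolase that clears the product of methylation, fell by 0.67 (SE 0.07). The other AlkB genes and AHCY were not called. Genes of interferon and double-stranded RNA sensing had 0 higher calls and 1 lower among 19, and the processing enzyme DICER1 was not called (0.17, limma adjusted p = 0.092).

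Genes that carry mRNA out of the nucleus were higher in 10 of 27 cases and lower in 1 (median 0.07), and without scramble replicate 1 the higher calls numbered 6. The median was 0.118 and 0.165 without shRNA-2 replicate 1 and replicate 3, and 0.106 and 0.113 without scramble replicate 1 and replicate 2. The helicase DDX39A went from 47.6, 52.4 and 36.8 CPM to between 88.5 and 105 CPM (1.10, SE 0.10). NXF1, the receptor that carries mRNA through the pore, rose by 0.76 (SE 0.11), its adaptor ALYREF by 0.86 (SE 0.09) and SRRT by 0.79 (SE 0.08), whereas the paralogue DDX39B (0.07) was not called. Of 35 SR and hnRNP splicing factors, 12 were higher and 3 lower (median 0.16). HNRNPM rose from between 398 and 447 CPM to between 563 and 618 CPM (0.48, SE 0.07) and SRSF2 by 0.56 (SE 0.09). The lower calls numbered 1 without shRNA-1 replicate 1 or scramble replicate 3 and 0 without scramble replicate 2.

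Cytosolic ribosomal proteins were higher in 40 of 75 cases and lower in 0, with a median of 0.26. RPL27 went from 474, 534 and 460 CPM to 752 and 796 CPM with shRNA-1 and 970 and 711 CPM with shRNA-2 (0.71, SE 0.11), and RPS27 rose by 0.61 (SE 0.10). Of 33 proteasome subunits 14 were higher and 0 lower (median 0.24), with PSMB7 (0.66, SE 0.09) and PSMB6 (0.63, SE 0.09) first. Of 46 nuclear genes of the respiratory chain 17 were higher and 1 lower (median 0.28). COX6A1, a subunit of cytochrome oxidase, went from 45.6, 51 and 46.8 CPM to between 90.4 and 114 CPM (1.07, SE 0.10), and NDUFB2 of complex I rose by 0.96 (SE 0.10). COX6A1 overlaps ENSG00000111780 on the same strand, which had a change of 1.09.

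Mitochondrially encoded genes moved down. Of 13, 8 were called lower and 0 higher (median -0.35). MT-ND5 was at 2452, 1796 and 1831 CPM with scramble, against 1051 to 1437 CPM with the shRNAs (-0.64, SE 0.09). MT-ND4 was at 3492, 2186 and 2281 CPM with scramble, against 1362 to 1881 CPM with the shRNAs (-0.67, SE 0.11). Scramble replicate 1 was the highest library for both. Without it 5 genes were called lower, and the list's median was -0.18.

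The mTORC1 and nutrient-sensing list had 9 higher and 3 lower calls among 40 genes, where 7.93% and 7.18% of all genes were called. Its median was 0.10, and 0.157 without shRNA-1 replicate 2 or 0.154 without shRNA-2 replicate 3. RPTOR, the scaffold of mTORC1, rose from between 52.4 and 58.9 CPM to between 79 and 93.6 CPM (0.57, SE 0.09), and MTOR was not called (0.06). The autophagy receptor SQSTM1 rose from 58.8, 73.3 and 55 CPM to between 110 and 123 CPM (0.91, SE 0.09), while the receptor OPTN fell by 0.61 (SE 0.14). Of 27 p53 target and growth arrest genes, 7 were called higher and 1 lower (median 0.22), beside the same shares of all genes. The higher calls numbered 3 without scramble replicate 2. In this list BAX, the apoptosis effector, rose from between 5.09 and 8.05 CPM to between 15.9 and 22 CPM (1.32, SE 0.19). CDKN1A, the cell cycle inhibitor p21, had a change of 0.54 (limma adjusted p = 0.020), which was lost without scramble replicate 2 (0.44, limma adjusted p = 0.10).

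Enzymes of sugar and lipid metabolism moved in both directions. The glycolysis list had 3 higher and 7 lower calls among 28 genes (median -0.12), where 7.93% and 7.18% of all genes were called. The lower calls numbered 4 without shRNA-1 replicate 2, scramble replicate 1 or scramble replicate 2. PGK1 rose from between 240 and 248 CPM to between 419 and 475 CPM (0.86, SE 0.06), PGAM1 rose by 0.41 (SE 0.07), and the glucose transporter SLC2A1 was not called (0.37, limma adjusted p = 0.084). Fatty acid synthase, FASN, rose by 0.43 (SE 0.07), and the desaturase SCD fell by 0.28 (SE 0.06). The soluble epoxide hydrolase EPHX2 fell from between 24.3 and 26.4 CPM to between 10.1 and 13.8 CPM (-1.08, SE 0.15).

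Genes of the cell cycle had 9 higher and 4 lower calls among 37 for replication and 2 higher and 9 lower among 34 for mitosis. Of all genes, 7.93% were called higher and 7.18% lower. The helicase subunit MCM7 rose by 0.37 (SE 0.06) and PCNA was not called (-0.08). TOP2A, which untangles chromosomes, went from 656, 621 and 578 CPM to between 405 and 482 CPM (-0.53, SE 0.07), and the kinesin CENPE fell by 0.45 (SE 0.08). The proliferation marker MKI67 had a change of -0.24 (limma adjusted p = 0.024), which was lost without scramble replicate 1 (-0.21, limma adjusted p = 0.11). Some lists had few calls in a direction, among them YAP and TAZ, speckle proteins, interferon, autophagy, cholesterol, oxidative stress, replication and transcription elongation. Each of the 7 libraries, when left out, moved a count of at least 1 of these lists by over 1.5 times, but not of every list.

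Short noncoding RNAs were among the most abundant transcripts that were called. RN7SK, the RNA that holds the elongation factor P-TEFb inactive, was at 2097, 1999 and 1845 CPM with scramble, at 3690 and 3803 CPM (shRNA-1) and 4664 and 3476 CPM (shRNA-2) (0.97, SE 0.10). RN7SL1, the RNA of the signal recognition particle, went from 6954, 7990 and 8835 CPM to between 11734 and 14701 CPM (0.73, SE 0.13). RN7SL2 and ENSG00000282885, which share their locus, both had a change of 0.60 (SE 0.09). These RNAs have many near-identical copies, and the values of single copies are uncertain. The mitochondrial ribosomal RNA MT-RNR1 was called lower (-0.63, SE 0.19, limma adjusted p = 0.030), but not without scramble replicate 1 (-0.42, limma adjusted p = 0.20). MALAT1, an abundant nuclear lncRNA, was not called (-0.14, limma adjusted p = 0.25).

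Each hairpin was also compared with the scramble libraries alone. Against the same 3 libraries, shRNA-1 gave 1555 calls (8.53% of genes), 921 higher (5.05%) and 634 lower (3.48%), and shRNA-2 gave 1834 (10.1%), 922 higher (5.06%) and 912 lower (5%). Since both comparisons share their controls, values are set side by side and no overlap is read from them. ANKRD1 had log2 changes of 4.88 with shRNA-1 and 4.70 with shRNA-2, HSPA1B of 3.87 and 3.82, HSPA5 of -1.02 and -1.08, and ASNS of -0.68 and -0.66. The calls of shRNA-1 numbered 541 without its replicate 1, 751 without its replicate 2 and 928 without scramble replicate 1. Those of shRNA-2 numbered 592 without its replicate 1, 1178 without its replicate 3 and 1164 without scramble replicate 1. Where 1 library of a hairpin was left, it is assumed to vary like the other groups.

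**Figure D4:**
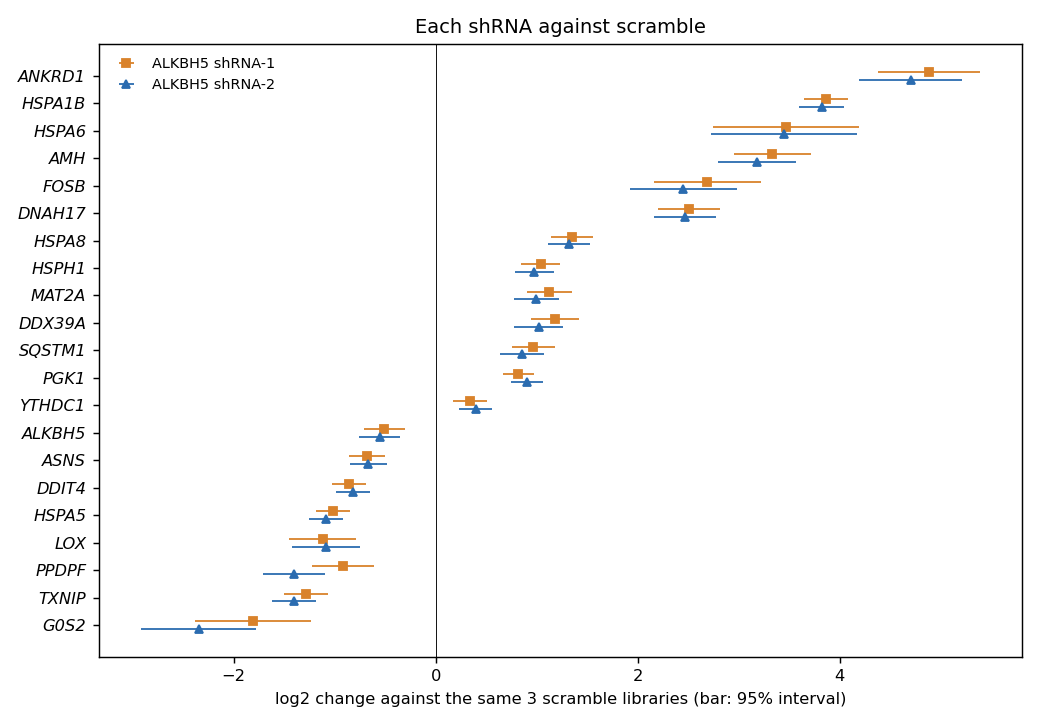
Log2 change of 21 genes with ALKBH5 shRNA-1 (squares) and with shRNA-2 (triangles), each against the same 3 scramble libraries, with 95% intervals as bars. The genes were chosen for their change over both hairpins and the controls are shared, so the common side of 0 carries no test; G0S2 and PPDPF show the widest gaps among the falling genes.

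Tested directly against each other, the hairpins gave no call in limma, with 943 genes at an unadjusted p under 0.05 (5.17% of genes) and a lowest adjusted p of 0.908. EdgeR on the recovered reads also called 0 genes and DESeq2 called 1. For ALKBH5 the shRNA-2 libraries differed from the shRNA-1 libraries by -0.05 (95% interval -0.27 to 0.17). For HSPA1B the difference was -0.05 (-0.29 to 0.19), for HSPA5 -0.06 (-0.25 to 0.12) and for ANKRD1 -0.18 (-0.74 to 0.38). PPDPF was lower with shRNA-2 by 0.49 before adjustment (-0.82 to -0.15, limma adjusted p = 0.93). With 2 libraries a hairpin the intervals were wide: on either side of the estimate their median reach was 0.47 log2 units over all genes and 0.29 over the genes called against scramble, so smaller differences between hairpins were not detectable here. Among the 2754 genes called over both hairpins, the interval of the difference stayed within 1 log2 unit on either side of 0 in 2559.

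The ALKBH5 change was also set against the change in the libraries labelled RBM33 shRNA, measured against their own scramble group, where 17.7% of genes were called. The difference of both changes passed in 491 genes (2.69%), 366 higher (2.01%) and 125 lower (0.686%). ALKBH5 itself differed by -0.47 (adjusted p = 0.023 in limma). The share of higher genes among these calls was 74.5% in limma and 64.2% in DESeq2. Ribosomal proteins accounted for 40 of the higher calls and nuclear respiratory chain genes for 14: in the libraries labelled RBM33 shRNA the median change of these lists was -0.18 and -0.11. RN7SK differed by 1.30 (95% interval 1 to 1.59), COX6A1 by 1.20 (0.91 to 1.49) and XBP1 by 0.81 (0.56 to 1.06). XBP1 did not change with the ALKBH5 shRNAs beyond its spread (0.05) and fell by 0.77 in the libraries labelled RBM33 shRNA. Of 35 heat shock genes, 1 was higher and 0 lower in this difference, where 2.01% and 0.686% of all genes were. Their median change in the libraries labelled RBM33 shRNA was 0.226. It was -0.205 in the endoplasmic reticulum list and -0.292 in the ATF4 list. These directions were those seen with the ALKBH5 shRNAs. ANKRD1, G0S2 and LOX were not called in the difference, which does not show that their changes were equal. The total of 491 calls became 306 without shRNA-2 replicate 1 and 321 without scramble replicate 1.

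The calls were not spread evenly over gene classes. Protein-coding genes were split into 5 groups of like size by length. The shortest (up to 2953 bases) had 12% called higher and 3.77% lower, and the longest (from 8750 bases) had 7.94% and 13.8%. Each doubling of length went with a change of -0.031 to -0.055 in the 4 shRNA libraries and of -0.005 to 0.004 in the scramble libraries, relative to the scramble mean. With that trend removed from each library, 2675 genes were called, 1303 higher and 1372 lower, and the heat shock, endoplasmic reticulum and ATF4 lists had medians of 0.37, -0.22 and -0.25. The part of gene length in the counts of short genes, such as ribosomal proteins (37 higher and 0 lower after removal), was not tested further. By level, 2.47% and 1.67% of the lowest of 5 groups were called higher and lower, against 18.9% and 16.6% of the highest. Of 2410 lncRNAs 155 were called higher and 28 lower (median 0.15), against 1205 and 1228 of 13783 protein-coding genes (median -0.01). On chromosome 19, 11.4% of 1173 genes were higher and 3.07% lower, and on chromosome 4, 4.73% of 655 were higher and 11% lower. Promoters of protein-coding genes with the least G and C (up to 56.7%) had 9.07% higher and 7.85% lower calls, and those with the most (from 74%) had 6.89% and 9.88%.

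**Figure D5:**
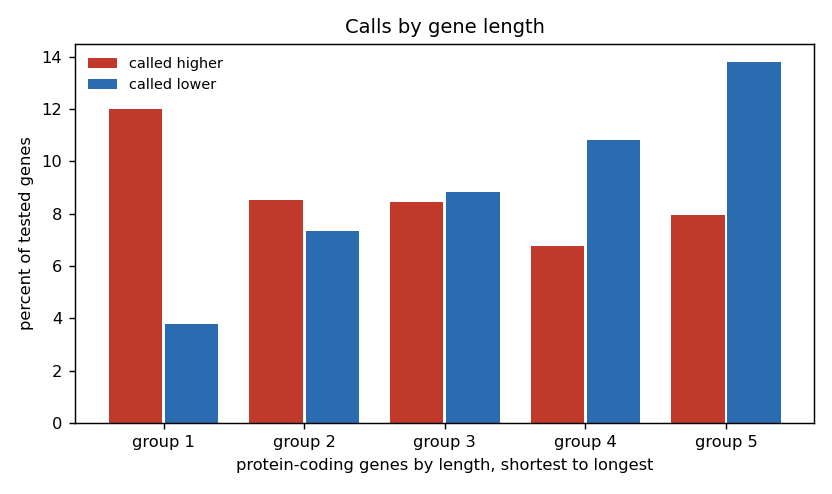
Percent of protein-coding genes called higher (red) and lower (blue) in 5 groups by gene length, from the shortest (left) to the longest (right). Higher calls go from 12% in the shortest to 7.94% in the longest group, and lower calls from 3.77% to 13.8%.

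The authors' deposited tables of m6A peaks that differ from scramble were matched to these genes by symbol. They hold 13120 peaks for shRNA-1 and 19251 for shRNA-2, each with an effect that is positive where m6A was higher with the shRNA. The RNA-seq libraries are named as inputs, and a peak's effect may share them, so RNA and m6A are not independent here. For shRNA-1, 35.9% of genes called higher, 41.4% of genes called lower and 20.3% of the other genes had a peak with higher m6A. The same shares for peaks with lower m6A were 29.7%, 18.3% and 15.1%. For shRNA-2 they were 45.2%, 45% and 26.5% with higher m6A, and 28.4%, 25.8% and 17.1% with lower m6A. Called genes were more abundant, with median levels of 49.7 CPM (higher) and 52.2 CPM (lower) against 12.3 CPM. Within the most abundant of the 5 level groups of protein-coding genes, a peak with higher m6A for shRNA-1 was listed at 59.3% of higher, 60.7% of lower and 61.2% of other genes, and these shares lay close together. For lower m6A they were 38.6%, 22.7% and 31.1% with shRNA-1 and 35.3%, 34.3% and 36.3% with shRNA-2. For higher m6A with shRNA-2 they were 67.2%, 61.6% and 66.6%. Lower m6A with shRNA-2 differed more between higher and lower genes in level groups 2, 3 and 4, counted from the lowest. There it was listed at 33.6%, 35.1% and 32.9% of higher genes and at 13%, 24.2% and 27.3% of lower genes. Other genes had 18.2%, 27.3% and 32.1%, so in group 4 higher and other genes lay close together. With shRNA-1 the shares were 37.2%, 37.6% and 33.2% of higher genes and 13%, 18.6% and 20.5% of lower genes. Other genes had 17.3%, 24.6% and 27.4%. In the lowest group the shares of higher, lower and other genes were 4.41%, 6.52% and 6.21% with shRNA-2. Among single genes, MAT2A had 4 peaks with higher m6A for shRNA-1 and 6 for shRNA-2 and 0 with lower. HSPA5 had 4 and 7 higher and 0 lower, and DDIT4 had 4 and 6 higher and 1 and 0 lower. JUN had 1 and 0 higher and 4 and 3 lower, while HSPA1A had none listed in either direction. No library-level m6A value was used, so these counts have no replicate error.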

How the data were processed

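Expression was deposited by the authors as a normalized signal, the CPM of 15 RNA-seq libraries. Per the submitters' processing notes, tools were cutadapt 1.18, HISAT2 2.1.0 (hg38), featureCounts of Subread 1.6.4, edgeR 3.24.3 and DESeq2. The library kit is stranded, per the labels' protocols, and no source used here gives the strand setting of counting. The authors also deposited log2 fold changes with adjusted p-values for each shRNA, and m6A peak effects (log base not stated in the header, values in the form of natural logs, used by sign only) with a score and a p-value.

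The log2(CPM + 1) values were tested with limma 3.58.1 in R 4.3.3, using its mean-variance trend. A single fit over all 15 libraries held 6 group means (9 residual degrees of freedom), with Benjamini-Hochberg adjustment over 18227 genes. With only the 7 libraries of the ALKBH5 set (4 residual degrees of freedom), 2552 genes were called over both shRNAs. Changes of low genes are understated on the log2(CPM + 1) scale. Whole reads were recovered from 100% of the CPM within 0.1 read for edgeR 4.0.16 and DESeq2 1.42.0, which were alternatives beside other pseudocounts, filters, scalings, a replicate block and leaving out each library. The fit was tested on simulated data. Columns of other samples numbered 0. The members, lists and tests were chosen with earlier results of these data known. Genes named were ALKBH5, the 12 largest called rises and falls at a mean of at least 5 CPM with groups apart, the 5 most abundant called genes, 5 a direction for the difference from the RBM33 libraries, up to 4 a list by adjusted p, and each list's best-known sensor or enzyme. Others, such as DNAJA1, STIP1, NEB and MYH3, were named after their values were seen.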

Additional observations from a re-analysis of the deposited data

Results flagged for a closer look

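The results in this part are named genes whose change with the ALKBH5 shRNAs differed from the change in the libraries labelled RBM33 shRNA at a limma adjusted p under 0.05, by a test of the difference itself. Values are the ALKBH5 change minus the RBM33 change in log2 units. They rest on the label of the RBM33 libraries. With limma run without the mean-variance trend 38 genes passed in place of 491, 36 higher and 2 lower. Most of the lower differences named below therefore lost their call in that setting.

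ALKBH5, the target of the shRNAs, had a difference of -0.47. Noncoding RNAs had the largest differences: ENSG00000280195 2.51, Y_RNA (ENSG00000207142) 2.35, PRMT5-AS1 2.29, MIF-AS1 2.25 and ENSG00000273149 2.08. Each of these 5 overlaps another gene, so their reads are uncertain: ENSG00000280195 lies opposite RPL10, Y_RNA inside PPHLN1, PRMT5-AS1 opposite PRMT5, MIF-AS1 opposite MIF and ENSG00000273149 opposite TPT1. ENSG00000280195 was at 15.6, 19.7 and 10.9 CPM with scramble, at 57.8 and 45.6 CPM (shRNA-1) and 107 and 30.3 CPM (shRNA-2), so its shRNA-2 libraries were far from each other. RNU6-1 differed by 1.41, RN7SK by 1.30, RN7SL1 by 0.81, RN7SL5P by 0.78, ENSG00000282885 by 0.73 and RN7SL2 by 0.73. The lncRNA that overlaps HSPA1B, ENSG00000285565, differed by 0.49.

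Genes of the mitochondrion and of protein synthesis and decay came next. COX6A1 differed by 1.20, COX6C by 0.67, NDUFB2 by 0.66 and NDUFA1 by 0.56. The ribosomal proteins RPL27 and RPS27 differed by 0.86 and 0.77. The proteasome subunits PSMA7 and PSMB6 differed by 0.71 and 0.53, and the chaperonin subunits CCT7 and CCT5 by 0.53 and 0.39. MT-ATP8 differed by -0.83, MT-ND4 by -0.58 and MT-ND5 by -0.54. XBP1 differed by 0.81, SQSTM1 by 0.51 and the cystine transporter SLC7A11 by -0.43. The glycolytic enzymes PGK1, GAPDH and PGAM1 differed by 0.59, 0.54 and 0.36. Of cell cycle genes, UBE2C differed by 0.75, CENPE by -0.56 and MKI67 by -0.44.

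The lowest differences among named genes were in genes that were not called with the ALKBH5 shRNAs: SLC36A1 -1.16, ENSG00000274422 -1.03, AL035425.4 -0.95, PON2 -0.90 and MIGA2 -0.87. All 5 lost the call in limma without the trend, and MIGA2 also with a gene length trend removed (-0.85, limma adjusted p = 0.052).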

How the results depend on the processing

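Over both shRNAs, 1724 genes were called by limma without the trend, and leaving out 1 library gave 1710 to 2358 calls. For shRNA-1 the corresponding values were 677 and 541 to 1580, for shRNA-2 they were 757 and 592 to 1839, and for the difference from the RBM33 libraries 38 and 306 to 579. That difference gave 282 calls with a gene length trend removed. Between hairpins DESeq2 called 1 gene. DESeq2 gave 258 lower calls in place of 125 for the difference from the RBM33 libraries. Over both shRNAs the balance turned from 1446 higher and 1308 lower to 1374 and 1434 in edgeR, 1339 and 1340 in DESeq2 and 1303 and 1372 with the length trend removed. The total counts stayed within 1.5 times under the other alternatives, and the change of ALKBH5 over both shRNAs kept its call in all. The causes were not tested.

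With the replicate block 2473 genes were called over both shRNAs, 1243 for shRNA-1, 1552 for shRNA-2, 0 between hairpins and 397 for the difference from the RBM33 libraries, and the change of ALKBH5 was -0.51. Deviations of same-numbered libraries correlated at -0.076 to 0.018, which gives no sign of pairing by number. In a hairpin group of 2 libraries the deviations mirror each other, so this check cannot exclude pairing. Over named genes and alternatives, 166 calls were lost and 0 reversed. Counts of lists moved by over 1.5 times in 165 of their settings and not in 987. Depth limits low genes, and the 95% interval of a change reached 0.36 log2 units to either side in the median gene.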
